A study of Mus musculus with 9 samples.

Results

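The expression of 10 genes of peroxide removal was followed in mouse livers with and without Atg7 in hepatocytes: Txnrd1, Txn1, Srxn1, Prdx1, Prdx6, Cat, Sod1, Sod2, Gpx1 and Gpx4. They were chosen by symbol as the cytosolic thioredoxin system, the peroxiredoxin Prdx1 with its repair enzyme Srxn1, the peroxiredoxin Prdx6, catalase, the intracellular superoxide dismutases and the main glutathione peroxidases. All 10 symbols were found among the 24411 rows of the count table, and all 10 passed the low-count filter that left 11199 genes for testing. Poly(A) RNA of 9 livers was sequenced, 3 mice per genotype, at 3 months of age on a C57BL/6 background. All mice carried floxed Atg7 on both alleles (Atg7flox/flox). The livers called cont. had no Cre. The livers called Atg7-KO also carried Alb-Cre, in which the albumin promoter drives Cre in hepatocytes, so the other cells of the liver keep Atg7. The livers called Atg7-KO;p62S351A had Alb-Cre and the p62S351A knock-in allele on both copies, and are written S351A below. This allele lowers the retention of KEAP1 in p62 bodies, the condensates that pile up when autophagy is blocked, and the study compared the genotypes to ask how much of the response of the transcription factor NRF2 depends on that retention. For S351A replicates 2 and 3 the genotype entry counts the position in p62 of the second allele up by 1 and 2, unlike the title. The titles were followed.

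Cells remove hydrogen peroxide by several routes. Superoxide dismutases turn superoxide into hydrogen peroxide, SOD1 mainly in the cytosol and SOD2 in the mitochondrial matrix. Catalase then destroys peroxide inside peroxisomes, where fatty acid oxidation makes it. Peroxiredoxins reduce peroxide at a reactive cysteine and are recharged by thioredoxin, which thioredoxin reductase recharges in turn with NADPH. Sulfiredoxin, the product of Srxn1, rescues peroxiredoxins whose cysteine has been over-oxidised. The glutathione peroxidases use glutathione instead, GPX1 on soluble peroxides and GPX4 on lipid peroxides in membranes. In liver, Txnrd1, Srxn1 and Prdx1 are textbook targets of NRF2, which KEAP1 holds back until p62 or an electrophile ties KEAP1 up.

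NRF2 binds an antioxidant response element whose core is commonly written with the letters TGACNNNGC, where N is any base, or TGAGNNNGC. Both were searched on both strands of the RefSeq promoter windows of 300 bases (250 before to 50 after the start, build GRCm38.p6). Of the 10 genes, 9 had at least 1 window, 14 windows in all, and Prdx6 had none. The letters TGACNNNGC stood in 12.4% of all 32851 windows, TGAGNNNGC in 17.6%, and at least 1 of them in 27.8%. Among the 14 windows of the 9 genes, 4 held at least 1, those of Srxn1, Prdx1, Sod1 and 1 of the 3 of Txnrd1. The 4 stretches are shown because their windows held a match before the start site. They belong to the gene that rose most, to its peroxiredoxin substrate, to the reductase of the same system and to the gene that fell most. They lie before the start site and outside annotated exons, at chr2:152105274-152105515 for Srxn1, chr4:116685349-116685543 for Prdx1, chr10:82859009-82859178 for Txnrd1 and chr16:90220512-90220753 for Sod1, all on the + strand. Capitals mark the matches, read on the printed strand, so that a match on the opposite strand appears as its reverse complement.
Srxn1: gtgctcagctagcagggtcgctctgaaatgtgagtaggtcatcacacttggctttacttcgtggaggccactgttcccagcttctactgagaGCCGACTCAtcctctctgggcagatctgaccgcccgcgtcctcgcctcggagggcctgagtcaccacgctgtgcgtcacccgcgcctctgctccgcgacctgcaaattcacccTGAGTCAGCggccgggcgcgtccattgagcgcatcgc
Prdx1: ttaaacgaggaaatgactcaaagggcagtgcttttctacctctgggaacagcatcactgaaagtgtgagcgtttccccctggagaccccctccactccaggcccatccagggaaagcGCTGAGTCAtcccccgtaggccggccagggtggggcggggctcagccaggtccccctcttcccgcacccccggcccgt
Txnrd1: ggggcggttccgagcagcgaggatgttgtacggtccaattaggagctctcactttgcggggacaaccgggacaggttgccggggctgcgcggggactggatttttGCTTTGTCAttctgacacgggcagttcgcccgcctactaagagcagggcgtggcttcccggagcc
Sod1: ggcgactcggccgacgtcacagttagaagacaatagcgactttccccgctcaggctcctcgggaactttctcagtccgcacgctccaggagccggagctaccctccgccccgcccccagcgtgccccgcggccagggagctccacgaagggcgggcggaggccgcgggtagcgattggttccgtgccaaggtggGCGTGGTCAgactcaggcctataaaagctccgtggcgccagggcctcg
The Srxn1 stretch held 2 matches, beginning 158 and 45 bases before the start, and its window also held TGACCTAGC on the opposite strand after the start. The Prdx1 window likewise held a match after the start, TGAGAACGC on the opposite strand. The nearer Srxn1 match, TGAGTCAGC, and the printed Prdx1 match, 133 bases before the start, also contain the letters of an AP-1 site. The Txnrd1 and Sod1 matches began 92 and 56 bases before their starts. These matches are descriptions of letters, and in the values below Srxn1 and Txnrd1 rose, Sod1 fell and Prdx1 did not pass the test in Atg7-KO.

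Among the proteins, TXNRD1, GPX1 and GPX4, are selenoproteins: a UGA codon, otherwise a stop, is read as selenocysteine in the active site. The coding bases around that codon, shown because the genes that make selenocysteine are described below, were read from the GENCODE M21 transcripts Txnrd1-201, Gpx1-201 and Gpx4-201, with TGA in capitals.
Txnrd1: ctccagtctggctgcTGAggttaa
Gpx1: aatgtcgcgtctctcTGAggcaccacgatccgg
Gpx4: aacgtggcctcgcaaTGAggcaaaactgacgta
In Txnrd1 it was codon 498 of 499, the last but one (chr10:82896037-82896039). In Gpx1 it was codon 47 of 201 (chr9:108339451-108339453) and in Gpx4-201 codon 129 of 253 (chr10:80054737-80054739). For each gene the lowest-numbered coding transcript with that codon was read. Codon numbers can differ in other transcripts, and which transcript the livers used was not tested.

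Library totals ran from 713835 to 15426566 counts. The 3 S351A libraries, at 713835 to 792366, were each smaller than every other library, the smallest of which held 1875314, so depth and the p62 allele cannot be told apart. Levels are counts scaled to library size (CPM) with TMM factors, which are set so that most genes match between libraries. With total library size instead, the median gene shifted up on the log2 scale against cont., by 0.54 in Atg7-KO and by 0.49 in S351A, and by -0.05 between those 2 groups. Atg7 itself was 45.1, 57.8 and 42.4 CPM in cont., 30.2, 28.0 and 28.4 in Atg7-KO and 21.8, 24.8 and 22.2 CPM in S351A, a fall of 1.67-fold in Atg7-KO (adjusted p = 0.00758, edgeR's quasi-likelihood test). Transcripts from other cells, and those that keep the rest of the gene, are counted too. Sex was not in the labels. Xist and Y-linked counts marked 2 of 3 cont. livers as male, and 1 of 3 in each other group.

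Markers of several cell types moved with genotype, beside 19.9% of all genes called higher and 18.1% lower in Atg7-KO against cont. Summed hepatocyte markers (5 genes) ran from 44971 to 99529 CPM in cont., from 32943 to 39628 in Atg7-KO and from 31209 to 43630 in S351A, with 3 of the 5 called lower in Atg7-KO and none higher. Ductular markers (6 genes) went from 48.2 to 85.2 CPM in cont. to 821 to 1216 in Atg7-KO, with 6 of 6 called higher. Stellate markers were at 248 to 502 CPM and at 955 to 1382, with 5 of 6 higher. Macrophage markers were at 221 to 358 CPM and at 358 to 469, with 5 of 8 higher. Lymphocyte markers were at 7.63 to 20.8 CPM and at 47.4 to 63.1, with 1 of the 2 tested higher, and neutrophil markers at 7.53 to 9.86 CPM and at 16.5 to 25.2, with the only 1 tested higher. Endothelial markers were at 102 to 193 CPM and at 133 to 159, with 1 of 6 higher and 2 lower. Erythroid markers were at 322 to 899 CPM in cont. and at 93.3 to 204 in Atg7-KO, with 2 of the 3 tested lower and Hba-a1 at 0 in all 9 libraries. The S351A sums lay at 730 to 1213 CPM for ductular, 1001 to 1363 for stellate, 307 to 330 for macrophage, 152 to 220 for erythroid, 29.9 to 39.7 for lymphocyte, 12.3 to 18.6 for neutrophil and 112 to 152 for endothelial markers. The part of these shifts in the changes below was not tested. In whole liver, fewer cells of a type and less RNA per cell cannot be told apart.

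**Figure D1:**
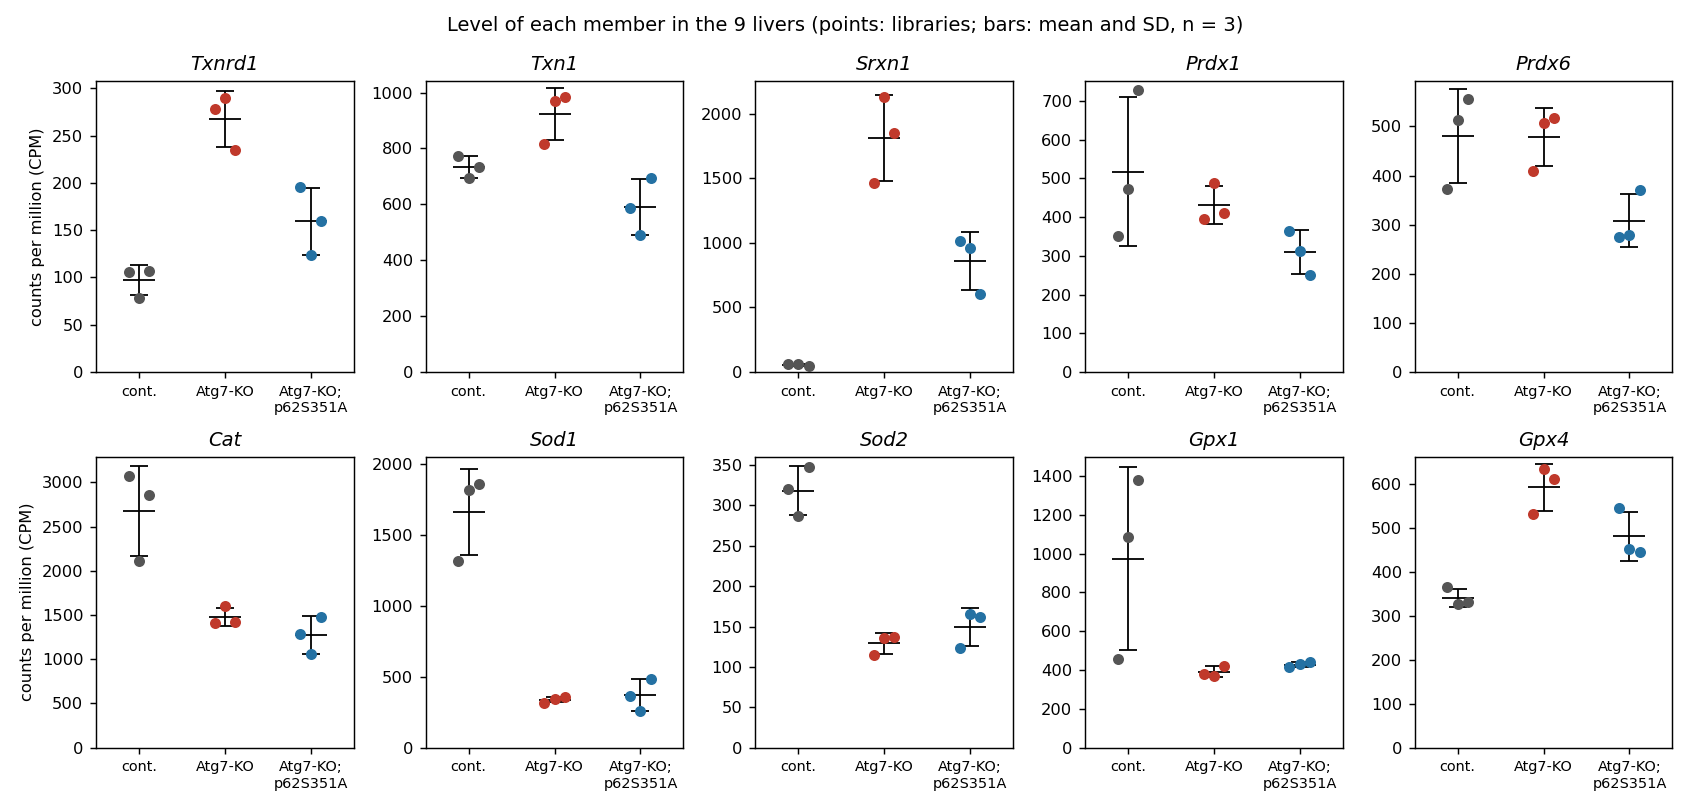
Level of each of the 10 genes in CPM (vertical axis, from 0) in the 9 livers, by genotype. Points are libraries and bars the mean and SD of 3. Srxn1 lies between 1465 and 2126 CPM in Atg7-KO, against 47.4 to 64.2 in cont., while Sod1, Sod2, Cat and Gpx1 are lower in every Atg7-KO and S351A library than in every cont. library.

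In Atg7-KO against cont., the 10 genes split. Srxn1, Txnrd1 and Gpx4 rose, Sod1, Sod2, Gpx1 and Cat fell, and Txn1, Prdx1 and Prdx6 did not pass the test. A gene was called when its Benjamini-Hochberg adjusted p was under 0.05 in edgeR's quasi-likelihood test and its fold change was above 1.5. That gave 3 of 10 called higher against 19.9% of all genes tested, and 4 of 10 called lower against 18.1%. Scaled by total library size, 4 were higher (Txn1 in addition) against 38.3% of all genes, and 2 lower, Sod1 and Sod2, against 7.15%. The libraries of the genotypes did not overlap for 4 of 10 genes in the upward direction, Txn1 being the addition, against 26.7% of all genes, and for 4 of 10 downward against 24.9%. The median over the 10 was -0.14 on the log2 scale and over all genes -0.03, and the 10 ranged from -2.29 to 5.00.

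In S351A against Atg7-KO no gene of the 10 was called, which at the depth of the S351A libraries does not show that none differed. Of the 10 genes, 5 were lower in every S351A library than in every Atg7-KO library, Srxn1, Txnrd1, Txn1, Prdx1 and Prdx6, and across all genes 9.23% were lower without overlap. Of the 9 tested partners of thioredoxin and the 5 other peroxiredoxins and sestrins, 3 were likewise lower without overlap, Txndc17 (log2 fold change -0.56), Prdx3 (-0.53) and Txnl1 (-0.42), 2 were higher, Txnrd2 (0.91) and Prdx4 (0.42), and the others overlapped, none of them called. None of the other 5 genes was free of overlap in either direction, and 7.67% of all genes were higher without overlap. By edgeR's quasi-likelihood test 0 of 10 were called higher and 0 of 10 lower, against 0% and 0.00893% of all genes, the latter a single gene. At an unadjusted p under 0.05, 4 of 10 were lower (Srxn1, Txnrd1, Txn1 and Prdx6) against 3.21% of all genes, and 0 of 10 higher against 3.38%. DESeq2 called 1 of the 10 lower, Srxn1, against 0.152% of all genes, and 0 higher against 0.205%, and limma-voom called none. The median log2 fold change of the 10 was -0.39, beside 0.01 over all genes.

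In S351A against cont., 2 of 10 genes were called higher, Srxn1 and Txnrd1, against 15.6% of all genes, and 4 of 10 lower, Cat, Sod1, Sod2 and Gpx1, against 13%. Scaled by total library size, Gpx4 was higher in addition, making 3 against 31.2% of all genes, and 2 were lower, Sod1 and Sod2, against 4.57%. Without overlap, 3 of 10 were higher (Gpx4 in addition) against 19.6%, and 5 of 10 lower (Prdx6 in addition) against 18.4%. For Prdx6 the nearest libraries were at 371.5 CPM in S351A and 371.9 in cont. The median over the 10 was -0.69 on the log2 scale, beside -0.03 over all genes. This comparison shares its cont. libraries with the first and its S351A libraries with the second, so the 3 sets of values are not independent.

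**Figure D2:**
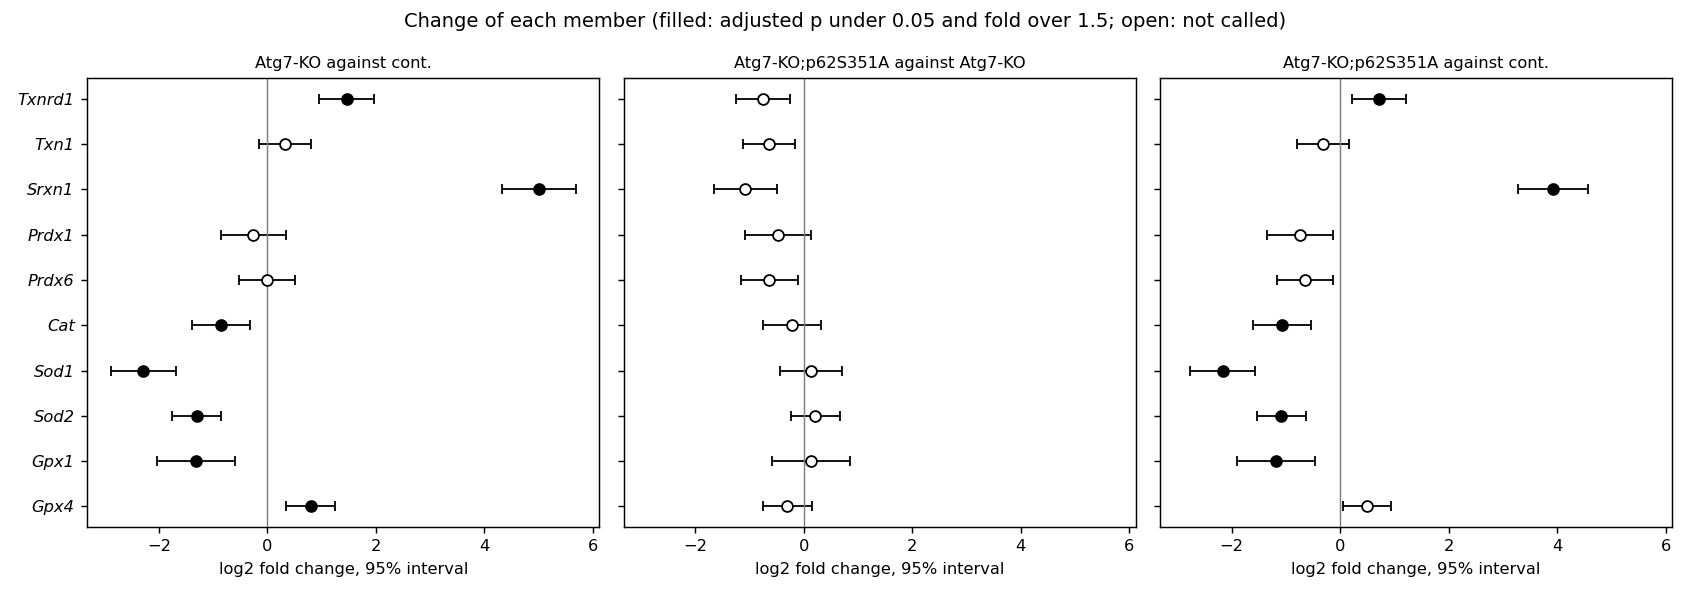
Log2 fold change (horizontal axis) of each of the 10 genes in the 3 comparisons of genotypes, each on 3 against 3 livers. The 95% intervals were derived from the F statistic of edgeR's quasi-likelihood test. Filled points passed both thresholds and open points did not: 7 are filled in Atg7-KO against cont., none in S351A against Atg7-KO and 6 in S351A against cont.

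Srxn1 (chr2:152105516-152111376, + strand, mm10, protein coding as are all 10) encodes sulfiredoxin and changed most. It was 64.2, 58.8 and 47.4 CPM in cont., 1465, 2126 and 1853 in Atg7-KO, and 1012, 960 and 603 CPM in S351A. The 3 groups did not overlap in any pairing, with S351A in between. The rise in Atg7-KO was 32.1-fold (log2 fold change 5.00, SE 0.32, adjusted p = 1.03e-06, edgeR), which placed the gene 94th from the top of 11199. S351A remained 15.2-fold above cont. (log2 fold change 3.92, SE 0.30, adjusted p = 8.39e-06). S351A was 2.11-fold below Atg7-KO, with a 95% interval of the log2 difference from -1.66 to -0.50. That did not pass edgeR's test over all genes (adjusted p = 0.364), while DESeq2 gave an adjusted p of 0.0141 with a log2 fold change of -1.08.

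Txnrd1 (chr10:82833951-82897712, + strand) encodes the cytosolic thioredoxin reductase. Its level was 106, 78.5 and 107 CPM in cont., 279, 289.7 and 234 in Atg7-KO, and 195, 124 and 159 CPM in S351A. Here too S351A lay between the others without overlap. The rise in Atg7-KO was 2.75-fold (log2 fold change 1.46, SE 0.23, adjusted p = 4.36e-04, edgeR). The S351A level was 1.64-fold above cont. (adjusted p = 0.0366, edgeR), but this call was lost in 9 of 20 alternatives, among them leaving out S351A replicate 1 (adjusted p = 0.166), cont. replicate 2 (0.116), S351A replicate 3 (0.0634) or any of the 3 Atg7-KO libraries (0.0604 to 0.0631). Against Atg7-KO, S351A was 1.68-fold lower, with a 95% interval from -1.25 to -0.24 on the log2 scale and an adjusted p of 0.590.

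Txn1 (chr4:57943373-57956411, − strand), cytosolic thioredoxin itself, moved little next to its reductase. It was 772, 693 and 732 CPM in cont., 815, 968 and 982 in Atg7-KO, and 587, 491 and 694 CPM in S351A. Every Atg7-KO library was above every cont. library, but the 1.26-fold difference had an adjusted p of 0.256 (edgeR) and a 95% interval from -0.15 to 0.81 on the log2 scale. With total library size it was called higher (log2 fold change 0.86, adjusted p = 0.00935), and likewise when the 20 most counted genes were kept out of the library size (0.76, adjusted p = 0.0166). S351A was 1.56-fold below Atg7-KO (adjusted p = 0.686), and its libraries overlapped those of cont. (log2 fold change -0.31, and 0.17 with total library size). The Txnrd1 to Txn1 ratio of counts, which no library scaling can change, was 0.137, 0.113 and 0.147 in cont., 0.342, 0.299 and 0.238 in Atg7-KO, and 0.333, 0.253 and 0.230 in S351A. The ratio did not overlap between cont. and either other group, and it overlapped between Atg7-KO and S351A. An exact two-sided permutation test gave p = 0.1 for each of the former, the smallest that 3 against 3 allows, and p = 0.7 for the latter.

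Prdx1 (chr4:116685544-116700822, + strand), a cytosolic peroxiredoxin and a substrate of sulfiredoxin, was 350.9, 473 and 727 CPM in cont., 395, 488 and 412 in Atg7-KO, and 365, 313 and 252 CPM in S351A. The cont. libraries were far apart and overlapped those of both other groups. The log2 fold change in Atg7-KO was -0.26 with a 95% interval from -0.86 to 0.34, and it became 0.29 with total library size. The S351A libraries lay below all Atg7-KO libraries, 1.39-fold lower on average (adjusted p = 0.838, edgeR), with a 95% interval from -1.08 to 0.13. Against cont., with which they overlapped, the log2 difference was -0.74 (95% interval from -1.35 to -0.13, adjusted p = 0.0653, edgeR). There 3 of 20 alternatives called it lower, namely no filter (adjusted p = 0.0239), DESeq2 (0.0386) and leaving out cont. replicate 1 (0.0157), while total library size brought the difference to -0.24. The Srxn1 to Prdx1 ratio of counts was 0.183, 0.124 and 0.0651 in cont., 3.71, 4.36 and 4.50 in Atg7-KO, and 2.77, 3.07 and 2.40 in S351A. In counts, not adjusted for transcript length, Srxn1 thus went from fewer than Prdx1 to more in every Atg7-KO and S351A library. The ratio in S351A was below that in Atg7-KO without overlap, by 0.61 on the log2 scale (exact two-sided permutation p = 0.1, the smallest possible).

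Prdx6 (chr1:161240112-161251219, − strand) encodes a peroxiredoxin with a single reactive cysteine that also reduces phospholipid peroxides. Its level was 372, 513 and 556 CPM in cont., 409.9, 508 and 517 in Atg7-KO, and 275, 279 and 371 CPM in S351A. The cont. and Atg7-KO libraries overlapped, and their log2 difference of -0.01 had a 95% interval from -0.52 to 0.50. S351A averaged lower than both, 1.55-fold below Atg7-KO (adjusted p = 0.696) and 1.56-fold below cont. (adjusted p = 0.0615, edgeR), and neither difference was called. The highest S351A library, at 371.5 CPM, was just under the lowest of cont., at 371.9. Against cont. 7 of 20 alternatives called Prdx6 lower in S351A, DESeq2 among them (adjusted p = 0.0280), while total library size brought the log2 difference to -0.14.

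Cat (chr2:103453849-103485160, − strand) encodes catalase. It was 3065, 2106 and 2859.7 CPM in cont., 1411, 1599 and 1425 in Atg7-KO, and 1289, 1054 and 1478 CPM in S351A. All 6 libraries with Alb-Cre lay below all 3 cont. libraries. The fall was 1.81-fold in Atg7-KO (log2 fold change -0.86, SE 0.25, adjusted p = 0.0162, edgeR) and 2.10-fold in S351A (-1.07, SE 0.25, adjusted p = 0.00736). The first call was lost with total library size (-0.33, adjusted p = 0.305), with a library size that leaves out the 20 most counted genes (-0.43, 0.180) and without Atg7-KO replicate 1 (0.0643) or replicate 3 (0.0672). The second was lost with both of those library sizes (0.0898 and 0.0530) and with the 6 compared libraries alone (0.0537). Atg7-KO and S351A overlapped, with an interval of the log2 difference from -0.75 to 0.32.

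Sod1 (chr16:90220754-90226329, + strand), the copper- and zinc-containing dismutase, fell most. It was 1315, 1816 and 1857 CPM in cont., 317, 345 and 357 in Atg7-KO, and 368, 261 and 487 CPM in S351A. The lowest cont. library was above the highest of the other 6. The fall was 4.90-fold in Atg7-KO (log2 fold change -2.29, SE 0.28, adjusted p = 6.63e-05, edgeR) and 4.47-fold in S351A (-2.16, SE 0.28, adjusted p = 2.16e-04). It ranked 203rd from the bottom of 11199 genes in Atg7-KO. These calls held in all 20 alternatives. S351A and Atg7-KO overlapped, and their log2 difference of 0.13 (95% interval from -0.44 to 0.71) turned to -0.12 without S351A replicate 3.

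Sod2 (chr17:13006846-13040063, + strand), the manganese dismutase, was 319.8, 287 and 348 CPM in cont., 115, 136 and 137 in Atg7-KO, and 123, 165 and 162 CPM in S351A. The groups were apart in the same way as for Sod1, with a 2.47-fold fall in Atg7-KO (log2 fold change -1.30, SE 0.21, adjusted p = 4.43e-04, edgeR) and a 2.12-fold fall in S351A (-1.09, SE 0.21, adjusted p = 0.00253). Both calls held in all 20 alternatives. The Sod1 to Sod2 ratio of counts was 4.11, 6.32 and 5.34 in cont., 2.77, 2.54 and 2.60 in Atg7-KO, and 2.99, 1.58 and 3.02 in S351A, lower in all 6 livers with Alb-Cre than in any cont. liver (exact two-sided permutation p = 0.1 for each group against cont., the smallest possible).

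Gpx1 (chr9:108338903-108340343, + strand), the abundant cytosolic glutathione peroxidase, was 456, 1084 and 1380.3 CPM in cont., 378, 372 and 423 in Atg7-KO, and 415, 432 and 439 CPM in S351A. The cont. livers were far apart, and replicate 1 was only just above the 6 libraries with Alb-Cre. The fall was 2.49-fold in Atg7-KO (log2 fold change -1.32, SE 0.33, adjusted p = 0.00770, edgeR) and 2.27-fold in S351A (-1.18, SE 0.33, adjusted p = 0.0188). With total library size neither passed (adjusted p = 0.0612 and 0.108), and the S351A call was also lost with a library size that leaves out the 20 most counted genes (0.0769), with the 6 compared libraries alone (0.0741), without cont. replicate 3 (0.0583) and without S351A replicate 1 (0.0660) or replicate 2 (0.0620).

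Gpx4 (chr10:80047166-80056439, + strand), the glutathione peroxidase that protects membrane lipids and whose loss triggers ferroptosis, went the other way. It was 365, 327 and 332 CPM in cont., 533, 634 and 612 in Atg7-KO, and 546, 452 and 446 CPM in S351A. Every library with Alb-Cre was above every cont. library. The rise in Atg7-KO was 1.74-fold (log2 fold change 0.80, SE 0.21, adjusted p = 0.00869, edgeR) and held in all 20 alternatives. In S351A it was 1.41-fold (adjusted p = 0.0894), under the fold limit, and was called with total library size (log2 fold change 0.97, adjusted p = 0.00435). The Gpx4 to Gpx1 ratio of counts was 0.799, 0.302 and 0.241 in cont., 1.41, 1.70 and 1.45 in Atg7-KO, and 1.32, 1.05 and 1.01 in S351A, so counts of Gpx4 exceeded those of Gpx1 in all 6 livers with Alb-Cre and in none of the cont. livers (exact two-sided permutation p = 0.1 for each group against cont., the smallest possible). These ratios were formed after the levels had been seen.

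Levels of different genes were set side by side after division by length, here the merged exon length of the GENCODE basic set. This is the union over transcripts, from 641 bases for Sod1 to 5861 for Sod2, and can exceed the transcript made in liver. Which transcripts the livers made was not tested, so the order across genes is approximate. In cont., Sod1 stood first at 2594 CPM per kilobase ± 471 (SD, n = 3), followed by Cat at 1025 ± 193 and Gpx1 at 908 ± 440.0, which did not differ beyond their spread. Txn1 came next at 697 ± 37.6, within the range of Gpx1, then Gpx4 at 268 ± 16.1. Prdx1 at 203 ± 75.5 overlapped both Gpx4 and Prdx6, the latter at 192 ± 38.5, and Txnrd1 at 23.9 ± 4.00 overlapped Srxn1 at 20.2 ± 3.05, the lowest, with Sod2 at 54.3 ± 5.16 above them. In Atg7-KO the order was another. Txn1 was first at 877 ± 88.3, Srxn1 moved from 10th to 2nd at 645 ± 118, Cat was at 566 ± 40.2, Sod1 at 529.6 ± 32.0, Gpx4 at 466 ± 41.9 and Gpx1 at 365 ± 25.9, with Srxn1, Cat and Sod1 overlapping, and Sod1 overlapping Gpx4. Prdx6 at 191 ± 23.7 and Prdx1 at 169.6 ± 19.4 overlapped too, and Txnrd1 at 65.7 ± 7.19 stood clear of Sod2 at 22.0 ± 2.16. In S351A Srxn1 was 6th at 305 ± 79.1, below Sod1 at 580.3 ± 177, Txn1 at 562 ± 96.6, Cat at 488 ± 81.3, Gpx1 at 399.9 ± 11.8 and Gpx4 at 378 ± 44.1. Sod1, Txn1 and Cat overlapped there, Gpx1 and Gpx4 overlapped each other as well as Sod1 and Cat, and Srxn1 overlapped Gpx4.

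**Figure D3:**
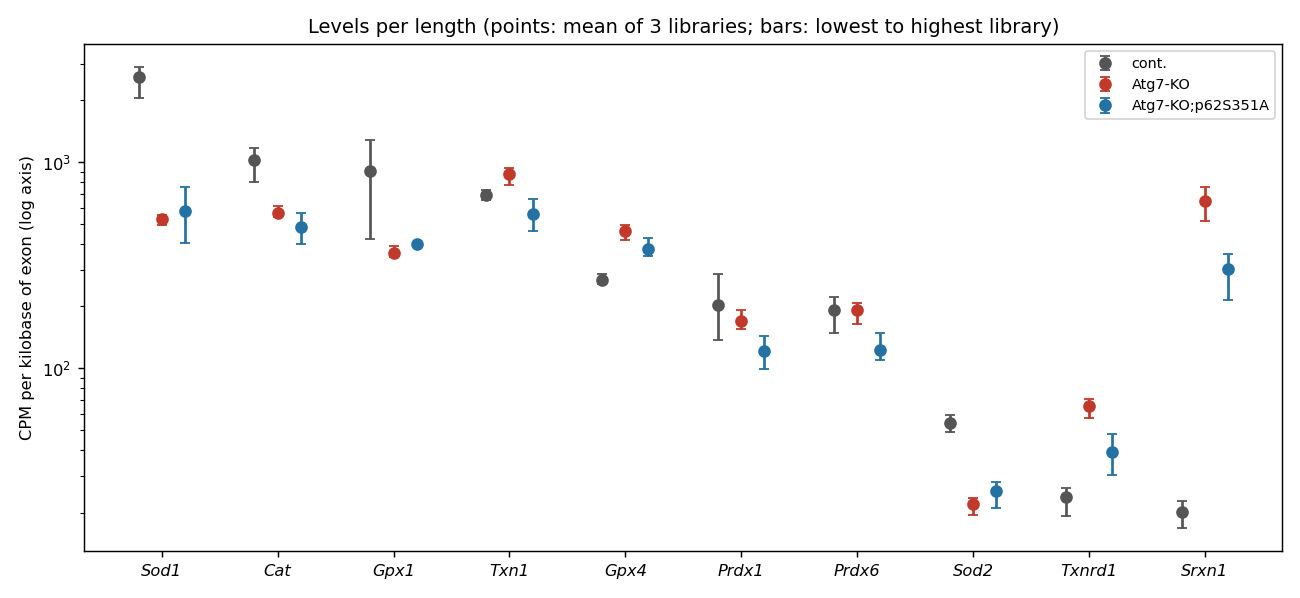
Level per merged exon length, in CPM per kilobase of exon on a log axis, for the 10 genes ordered by their cont. level. Points are the mean of 3 libraries and bars run from the lowest to the highest. Srxn1 goes from last at 20.2 in cont. to second at 645 in Atg7-KO, and Sod1 from first at 2594 to below Cat at 529.6.

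Beyond the 10 genes, 7 lists of related genes were read in the same tests, 86 genes in all, of which 79 were tested. In Atg7-KO against cont., 9 were called higher, 38 lower and 32 neither, beside the 19.9% higher and 18.1% lower among all genes. With total library size the counts were 17 higher and 21 lower, beside 38.3% and 7.15%, and no called gene changed its sign. Without Atg7-KO replicate 3, 4 were called higher. The median log2 fold change of the 79 genes was -0.65. In S351A against Atg7-KO edgeR called none of the 79, with 4 higher and 4 lower at an unadjusted p under 0.05 and a median of -0.01. DESeq2 called 3 there, Gsr and Maoa lower and Dio1 higher, and limma-voom none. In S351A against cont. 6 were called higher and 32 lower, beside 15.6% and 13%, with a median of -0.54, and 11 higher and 19 lower with total library size, beside 31.2% and 4.57%. Without S351A replicate 1, 2 were called higher.

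Of 9 tested partners of thioredoxin, 2 were called higher in Atg7-KO, 1 lower and 6 neither, with either scaling. The shares among all genes in Atg7-KO were 19.9% higher and 18.1% lower with TMM. With total library size they were 38.3% and 7.15%, and in S351A against cont. 15.6% and 13% with TMM. Txnrd2, the mitochondrial thioredoxin reductase, fell from a mean of 57.9 to 22.0 CPM (log2 fold change -1.40), opposite to the cytosolic Txnrd1. Txnip, which binds and inhibits thioredoxin, rose from 52.2 to 91.6 CPM (0.80) and was called in S351A as well (0.83). Txndc17, a small thioredoxin-like protein, rose from 69.9 to 107 CPM (0.61). The other peroxiredoxins and the sestrins, 5 tested, had 3 called lower and none higher in either group against cont. with TMM, while with total library size 1 was called higher and 2 lower in Atg7-KO. Prdx5, found in mitochondria and peroxisomes, was 85.8, 212 and 407 CPM in cont. and fell to a mean of 61.3 in Atg7-KO (-1.95). In S351A it was called lower too (-1.72), though its libraries overlapped those of cont. Prdx4, the peroxiredoxin of the endoplasmic reticulum, fell from 106 to 31.4 CPM (-1.77), and Prdx2, the close relative of Prdx1 that is abundant in red blood cells, from 129 to 65.2 CPM (-0.99). The Prdx2 call was lost with total library size (adjusted p = 0.147).

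The list of other glutathione peroxidases and partners of superoxide dismutase had 5 tested genes. The 3 tested glutathione peroxidases on it, Gpx2, Gpx3 and Gpx7, rose in Atg7-KO and in S351A against cont., the copper chaperone Ccs fell in both, and Sod3, the secreted dismutase, was not called with TMM (log2 fold change 0.25 and 0.47) but was called higher in both with total library size. Gpx2, the epithelial form and a known NRF2 target, had 0, 0 and 1 counts in the cont. libraries and 120, 76 and 60 in Atg7-KO, a ratio of 428 with a 95% counting interval from 76.2 to 16978 after scaling. In S351A it had 10, 11 and 7 counts in smaller libraries, a ratio to cont. of 175 with an interval from 28.9 to 7142. Scaled, it was 27.8, 27.3 and 27.5 CPM in Atg7-KO and 11.5, 13.7 and 8.64 in S351A, 2.44-fold lower without overlap (adjusted p = 0.311, edgeR). Gpx3, the secreted form, was 57.8, 13.4 and 2.42 CPM in cont., 114, 153 and 164 in Atg7-KO, and 523, 184 and 69.1 CPM in S351A. It rose in Atg7-KO (log2 fold change 2.71, SE 0.89, adjusted p = 0.0303, edgeR) and in S351A (adjusted p = 0.0128), and those 2 groups overlapped (adjusted p = 0.896). Ccs, the chaperone that loads copper into SOD1, fell from 214 to 56.9 CPM in Atg7-KO (-1.91) and to 64.6 CPM in S351A (-1.73), beside the fall of Sod1. On the list of glutaredoxins, glutathione reductase and methionine sulfoxide reductases, 9 tested, 2 were called higher, 3 lower and 4 neither in Atg7-KO with TMM, and 5 higher and none lower with total library size. Among all genes 19.9% were higher and 18.1% lower with TMM, and 38.3% and 7.15% with total library size. Gsr, which regenerates glutathione and is a known NRF2 target, went from 91.6 to 333 CPM in Atg7-KO (1.87) and stood at 166 CPM in S351A, 2.01-fold below Atg7-KO without overlap (adjusted p = 0.364, edgeR). With TMM Msra and Glrx5 fell (-0.89 and -0.75) and Glrx3 rose (0.68). With total library size the lower calls of Msra, Glrx5 and Msrb1 were lost, and Glrx, Msrb2 and Msrb3 were called higher.

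Of 16 tested genes of selenoproteins and of selenocysteine synthesis, 9 were called lower, 1 higher and 6 neither in Atg7-KO, with a median log2 fold change of -0.78. With total library size 4 were lower and 3 higher, with a median of -0.24. Among all genes 18.1% were lower and 19.9% higher with TMM, and 7.15% and 38.3% with total library size. Sephs2, which makes the selenium donor, fell from 889 to 172 CPM (-2.37), and Sepsecs, which makes selenocysteine on its tRNA, from 12.2 to 3.59 CPM (-1.87). Dio1, the deiodinase of liver, fell from 189 to 43.3 CPM (-2.12) and Selo, a mitochondrial selenoprotein, from 86.6 to 30.2 CPM (-1.52). Sepp1, the selenium carrier that hepatocytes secrete, was lower than in cont. in both groups, 2.41-fold in Atg7-KO (-1.27) and 2.63-fold in S351A (-1.39), and those 2 groups overlapped. Its call in Atg7-KO was lost with total library size (-0.72, adjusted p = 0.0634, edgeR). Thus of the selenoproteins among the 10 genes Gpx1 fell while Gpx4 and Txnrd1 rose.

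The last 2 lists hold sources of peroxide and the peroxisome, where catalase works. Of 16 tested oxidases that make hydrogen peroxide, 9 were called lower and 1 higher in Atg7-KO, with a median of -1.40. With total library size 8 were lower and 2 higher, with a median of -0.89. Nox4, an NADPH oxidase, fell from 53.0 to 5.51 CPM (-3.22), Aox3, an aldehyde oxidase, from 707 to 83.3 CPM (-3.09) and Hao1, the peroxisomal glycolate oxidase, from 182 to 38.4 CPM (-2.24). Uox, urate oxidase, was 4.07-fold lower than in cont. in Atg7-KO (-2.03) and 3.38-fold lower in S351A (-1.76), and those 2 groups overlapped. The exception was Maoa, the monoamine oxidase of the outer mitochondrial membrane, which rose from 10.9 to 99.3 CPM in Atg7-KO (3.29). Of 19 genes of peroxisome assembly and membrane, 12 were called lower and none higher in Atg7-KO, with a median of -0.79. With total library size 5 were lower and none higher, with a median of -0.24. Among all genes 18.1% and 7.15% were lower under these scalings. Abcd3, a transporter of fatty acids into peroxisomes, fell from 302 to 65.6 CPM (-2.20), Pxmp2, a peroxisomal channel, from 88.0 to 23.9 CPM (-1.90), and the assembly genes Pex16 and Pex11g by 1.49 and 1.48 on the log2 scale. In S351A against cont. the same lists had 8 lower for selenocysteine, 8 for oxidases and 10 for the peroxisome, beside 13% of all genes. Only 1 gene on them was higher, Maoa, beside 15.6%. Scaled by total library size, they had 4, 7 and 5 lower, beside 4.57% of all genes. Then 2 were higher for selenocysteine and 1, Maoa, for oxidases, beside 31.2%.

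**Figure D4:**
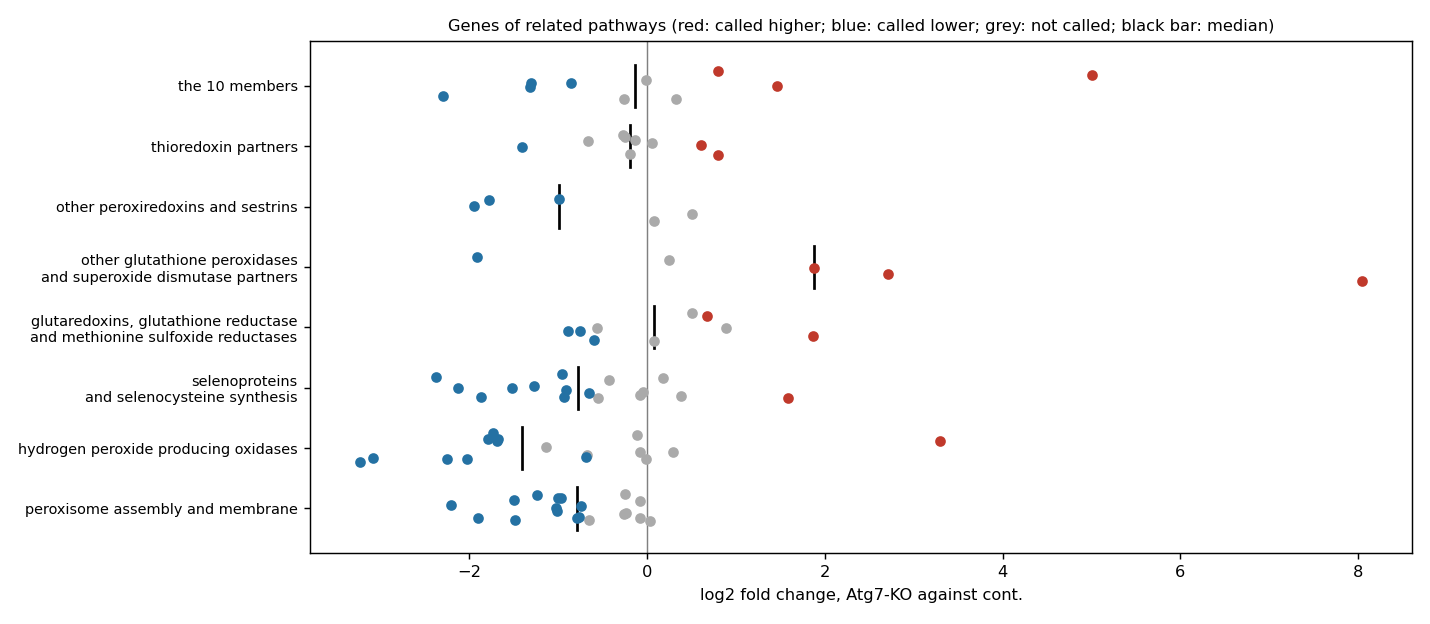
Log2 fold change in Atg7-KO against cont. (horizontal axis) of the 10 genes and of the tested genes on 7 lists of related genes, 1 point per gene, with the median of each list as a black bar. Red points were called higher and blue lower. The peroxisome list has 12 blue points of 19 and no red one, and the point farthest to the right is Gpx2, whose fitted value rests on 1 count in cont.

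For 6 of the 7 genes called in some comparison, the 3 genes with the most similar profile, among 8814 that averaged 10 CPM or more over the 9 libraries, were found by Pearson's r of log2 CPM, given as a description since the points share genotype and scaling. For Srxn1 they were Elovl7, Mvp and Cdc42se1 (r = 0.998 to 0.996, 9 libraries), for Txnrd1 Bin1, Fosl2 and Ywhaz (0.973 to 0.968), and for Gpx4 Bin1, Rps3 and Slc1a4 (0.981 to 0.973). For Sod1 they were Sdhb, Ctage5 and Atp5h (0.991 to 0.990), for Cat Lypla1, Paqr7 and Arl6ip1 (0.984 to 0.976), and for Gpx1 Uba1, Ahsg and Ambp (0.984 to 0.982). By Spearman's correlation none of these was among the 3 most similar genes.

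**Figure D5:**
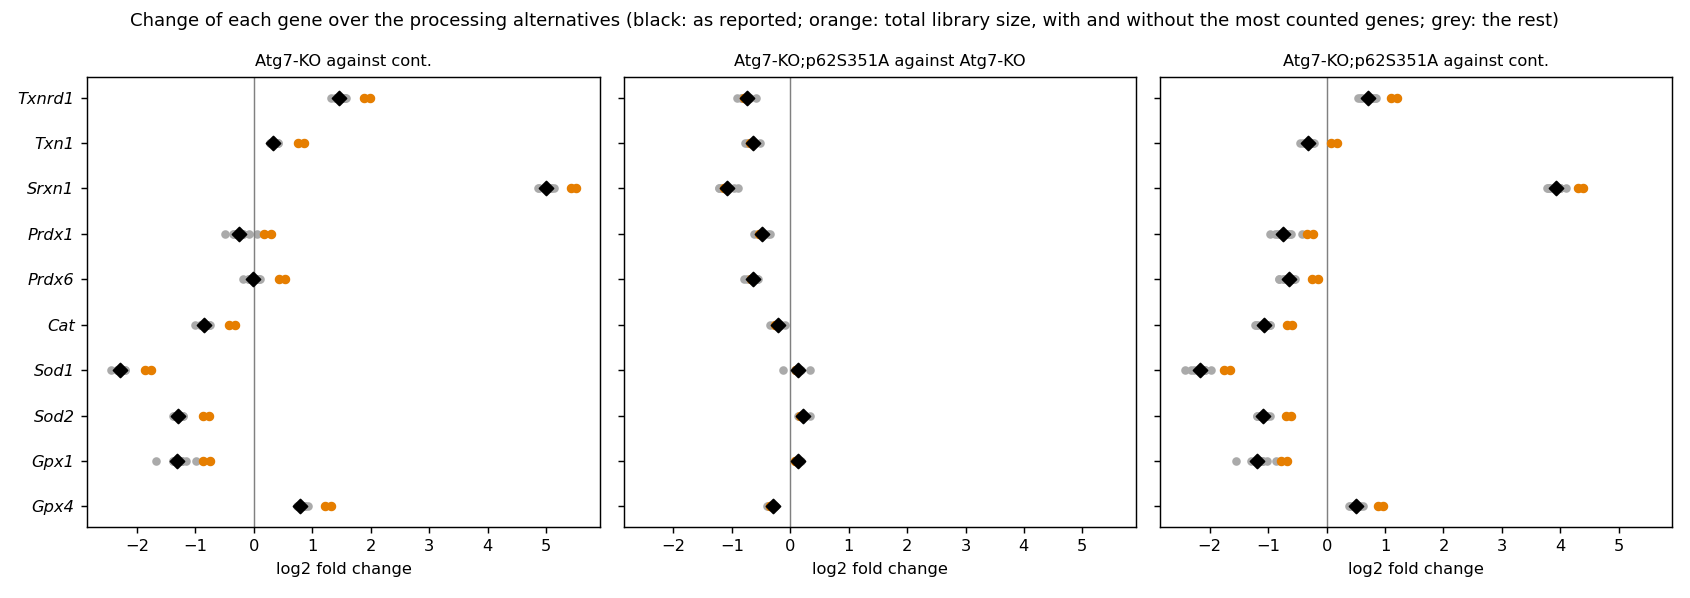
Log2 fold change (horizontal axis) of each of the 10 genes in the 3 comparisons under the processing as given (black) and 20 alternatives (grey), with total library size and the library size without the 20 most counted genes in orange. These 2 scalings move every gene up against cont. by a similar amount, so Srxn1 and Sod1 stay on their sides while Prdx1 and Prdx6 cross 0 in Atg7-KO against cont. and Txn1 crosses it in S351A against cont.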

How the data were processed

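Poly(A) RNA of 9 livers was sequenced as 75-bp single-end reads. The authors trimmed the reads with Trim Galore, mapped them to mm10 with STAR and deposited RSEM expected counts, estimated reads per gene with no scaling between libraries. Versions, annotation and strand setting are not given in the sources used here. Between 4.40% and 7.75% of values per library were not whole and were rounded, though those of the 10 genes were all whole. The study's methods name TRIzol for the extraction and the labels a Qiagen kit.

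Counts were fitted in edgeR 4.0.16 (R 4.3.3): filterByExpr (minimum count 10, minimum total 15), TMM scaling, and 1 quasi-likelihood model with a term per genotype over 9 libraries, with Benjamini-Hochberg adjustment over 11199 genes. The study called genes with DESeq2, here an alternative (1.42.0), as was limma-voom (3.58.1). Log2 CPM took a prior count of 2. The fits were tested on simulated data. All 9 columns were used.

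The 10 genes, the lists and the tests were chosen with earlier results of these data known. Named beyond the 10 genes were, per list and comparison, up to 4 called genes of largest change whose libraries did not overlap and whose higher group averaged 10 CPM or more, or else up to 2 of highest level, and the 3 most similar profiles per called gene, those of Sod2 not being reported here. Prdx3, Sod3, Gpx7, Glrx, Msrb1, Msrb2 and Msrb3 were named outside this rule. Of 24411 symbols, 23376 were GENCODE M21 gene names. Motifs were found and figures drawn in Python 3.11.15 with matplotlib 3.10.9. Counting intervals (Clopper-Pearson, 95%) take in counting error alone: without molecular identifiers, reads are not independent molecules.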

Additional observations from a re-analysis of the deposited data

How the results depend on the processing

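Of the values of the 10 genes in 3 comparisons under 20 alternatives each, 545 kept their direction and their side of the thresholds, 23 lost a call, 15 gained one and 17 changed sign. The sign changes were all in differences that were not called. Txn1 in S351A against cont. was 0.17 with total library size and 0.079 with a library size that leaves out the 20 most counted genes. Prdx1 in Atg7-KO against cont. was 0.29 and 0.18 with those scalings and ranged from -0.50 to 0.061 when 1 library was left out. Prdx6 in the same comparison was 0.0085 with RLE size factors, 0.53 with total library size, 0.42 without the 20 genes, 0.077 when each library had to hold 10 counts, 0.0064 with DESeq2, 0.015 with limma-voom, 0.042 with the 6 compared libraries alone, and from -0.18 to 0.11 with 1 library left out. Sod1 in S351A against Atg7-KO ranged from -0.12 to 0.34 with 1 library left out.

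Of the 10 genes, 2 were called lower in Atg7-KO against cont. with total library size, against 7.15% of all genes. In S351A against Atg7-KO, 1 was called lower by DESeq2, against 0.152%. In S351A against cont., 1 was called higher with no filter, with the 6 compared libraries alone, with all libraries thinned to the smallest and at an adjusted p under 0.01. With no filter 2153 of all genes were higher there. In the same comparison 2 were called lower with total library size, without the 20 genes and with the 6 libraries alone. Over all 11199 genes 512 were lower with the first of these settings and 638 with the second. With 1 library left out, the counts were 3 higher and 3 to 4 lower in Atg7-KO, 0 and 0 in S351A against Atg7-KO, and 1 to 2 higher and 3 to 6 lower in S351A against cont. Of the 79 related genes, in Atg7-KO against cont. 17 were called higher with total library size, 15 without the 20 genes and 5 at an adjusted p under 0.01, and 21 and 22 were lower with the first 2 settings. Over all genes 4284 and 3777 were higher with those 2 settings, and 801 and 976 lower. The range with 1 library left out was 4 to 10 higher, the lowest without Atg7-KO replicate 3, and 30 to 38 lower. In S351A against Atg7-KO DESeq2 called 1 higher and 2 lower, and no filter gave 2 lower. Over all genes DESeq2 called 23 higher and 17 lower there, and no filter gave 37 lower. In S351A against cont. 11 were higher with total library size, 10 without the 20 genes and 1 at an adjusted p under 0.01, and 19 and 20 were lower with the first 2. Over all genes 3498 and 3040 were higher with those 2, and 512 and 638 lower. Leaving out 1 library gave 2 to 6 higher, the lowest without S351A replicate 1, and 26 to 35 lower. Counts over all genes under the remaining settings are not given here. The cause of the shifts between settings was not tested, beyond the change of scale itself.

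Deviations from the group means of libraries with the same replicate number correlated at -0.04 to 0.31 over 9 pairs, 5 of them above 0.1. As not every pair was above 0.1, the numbers were not used as pairs. Of the 9 libraries, 6 were most like the library of another group with their own number, and the numbers partly follow sex, all livers numbered 1 being male and all numbered 2 female. With a replicate block, 3 of the 10 genes were higher and 4 lower in Atg7-KO against cont., and 2 higher and 5 lower in S351A against cont., Prdx6 being the addition (-0.63, adjusted p = 0.0371, edgeR). Over all 11199 genes the block gave 2297 higher and 2016 lower in the first comparison, and 1863 and 1543 in the second. The log2 fold change of Prdx6 in Atg7-KO against cont. was 0.0057 with the block. With sex as a factor the counts for the 10 genes were the same as with the block. Depth limits most the S351A libraries, where 3 counts stand for 3.45 to 3.73 CPM.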
